A study of Mus musculus with 24 samples.

Results

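The transcripts of the mitochondrial genome were followed in mouse blood stem and progenitor cells that carried or lacked an inducible MLL::ENL transgene. They were taken as every gene of the count table whose name starts with mt-, which gave 37 of 55487 distinct Ensembl genes. Of these, 13 code for proteins, 2 for ribosomal RNAs and 22 for transfer RNAs. All 37 lie on chromosome M of the GRCm38 build.

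The data were raw read counts per gene from 24 RNA-seq libraries, in 6 groups of 4. MLL::ENL (ME below) is the fusion of the histone methyltransferase gene MLL with ENL that drives some acute leukemias. The transgene codes for the human fusion in a Tet-off system, in which a tetracycline-controlled transactivator switches expression on once the drug is absent. The labels call the cells LSK, a lineage-negative, Sca-1-positive, Kit-positive population, while the design text gives a sort on absence of lineage markers and presence of KIT. The youngest cells were sorted from liver on the day of birth (P0), either wild-type (P0 WT) or with ME switched on at E10.5, an embryonic day (P0 ME). Bone marrow cells of 28 days (P28) were wild-type (P28 WT) or had ME switched on at E10.5 or only at P0. A further P28 bone marrow group, with ME induced at E10.5, is labelled RLT Vav Txp and the labels do not expand the name. The promoter that drives the transactivator and the sequencing batches are not given in the labels. Each age comes with its own tissue, so the effects of age and tissue cannot be told apart.

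Mitochondrial DNA is a small circle that is transcribed from both strands into long precursors. These are cut into messenger, ribosomal and transfer RNAs, in large part at the transfer RNAs that lie between the other genes. The messenger RNAs code for core subunits of the respiratory chain and of ATP synthase, and the ribosomal and transfer RNAs serve their translation inside the organelle. The enzymes that copy, transcribe, process and degrade this genome's RNA are all coded in the nucleus, and oxidative metabolism is known to be kept low in resting blood stem cells.

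A read can be placed on a mitochondrial gene only where its sequence belongs to that gene alone, and for several members it does not. The ends of mt-Atp8 and mt-Nd4l are shown because their capitals mark bases that also belong to the next gene. The last 43 bases of mt-Atp8 (M:7927-7969) open mt-Atp6, and the last 7 of mt-Nd4l (M:10167-10173) open mt-Nd4.

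mt-Atp8: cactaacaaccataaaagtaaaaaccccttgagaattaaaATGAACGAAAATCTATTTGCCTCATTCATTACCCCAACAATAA
mt-Nd4l: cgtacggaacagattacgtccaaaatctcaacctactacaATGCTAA

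A stretch of chromosome 1 carries copies of mitochondrial genes on its minus strand, annotated as predicted genes. The first 80 bases of mt-Co3 and of its copy Gm28437 (1:24613189-24613971) are shown because they are the same letter for letter, as are all 783 aligned bases.

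mt-Co3: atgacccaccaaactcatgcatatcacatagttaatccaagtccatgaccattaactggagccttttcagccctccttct
Gm28437: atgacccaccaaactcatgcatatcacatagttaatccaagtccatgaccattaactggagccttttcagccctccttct

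The copy of the end of mt-Co1, Gm29216 (1:24615706-24616197), matched at 482 of 483 aligned bases. The capital marks the 1 differing base, A1066T, counted from the start of mt-Co1 with the mitochondrial base first.

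mt-Co1 end: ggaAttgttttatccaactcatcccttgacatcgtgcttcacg
Gm29216 end: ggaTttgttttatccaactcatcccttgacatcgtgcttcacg

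The transfer RNA for proline, mt-Tp (M:15356-15422), is shown because it held most of the transfer RNA counts in most libraries. It is 67 bases long and lies on the minus strand.

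mt-Tp: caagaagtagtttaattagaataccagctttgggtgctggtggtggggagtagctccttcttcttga

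Library totals ran from 31233688 to 89774511 counts. The labels give 4 biological replicates a group. Only the RLT Vav Txp titles carry identifiers, some sharing a number, and what these name is not stated. The p-values thus measure the spread between these libraries. All 9 markers listed for LSK cells were detected. At P28 they summed to 4637 to 5763 CPM in the WT, E10.5-induced and P0-induced libraries but 2377 to 3380 CPM in RLT Vav Txp. At P0 they summed to 2381 to 4993 CPM in WT and 2470 to 5396 CPM in ME. Kit was at 169.5 to 1451 CPM and Ly6a, which codes for Sca-1, at 71.3 to 336.9 CPM over the libraries. Levels are in CPM, counts scaled to library size with TMM factors, and a gene was called where its edgeR adjusted p was under 0.05 over the 23059 genes tested. The filter on low counts kept 24 of the 37 members, namely the 13 protein-coding genes, both ribosomal RNAs and 9 transfer RNAs. Since the counts are of bulk RNA, fewer cells of a type and less RNA per cell cannot be told apart.

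The mitochondrial genes together held 1.77% ± 0.375 of all counts in P28 WT (SD, n = 4). At the same age they held 0.423% ± 0.0666 after ME induction at E10.5 and 0.567% ± 0.0574 after induction at P0. The 4 WT libraries had 2.00%, 2.15%, 1.62% and 1.32%. The E10.5-induced libraries had 0.371%, 0.520%, 0.390% and 0.412%, and the P0-induced libraries 0.623%, 0.539%, 0.605% and 0.500%. Every WT library was thus above every library of both ME groups, and the ME libraries lay close together. The RLT Vav Txp libraries spread over a wider range, with 0.560%, 1.16%, 1.13% and 1.61%, a mean of 1.12% ± 0.432. One of them was as low as the P0-induced libraries, and its highest lay within the range of P28 WT.

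At P0 the mean share was 1.96% ± 1.05 in WT and 1.61% ± 0.458 in ME (SD, n = 4). The WT libraries had 1.47%, 1.84%, 1.07% and 3.46%, and the ME libraries 1.37%, 1.85%, 1.11% and 2.12%. The groups overlapped throughout, and WT replicate 4 had the highest share of all 24 libraries. Counting error was small beside these spreads, since the 95% Wilson interval of a library's share reached at most 0.00508 percentage points to either side. Intervals and floors cover counting error only, because PCR makes several reads from a molecule.

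**Figure D1:**
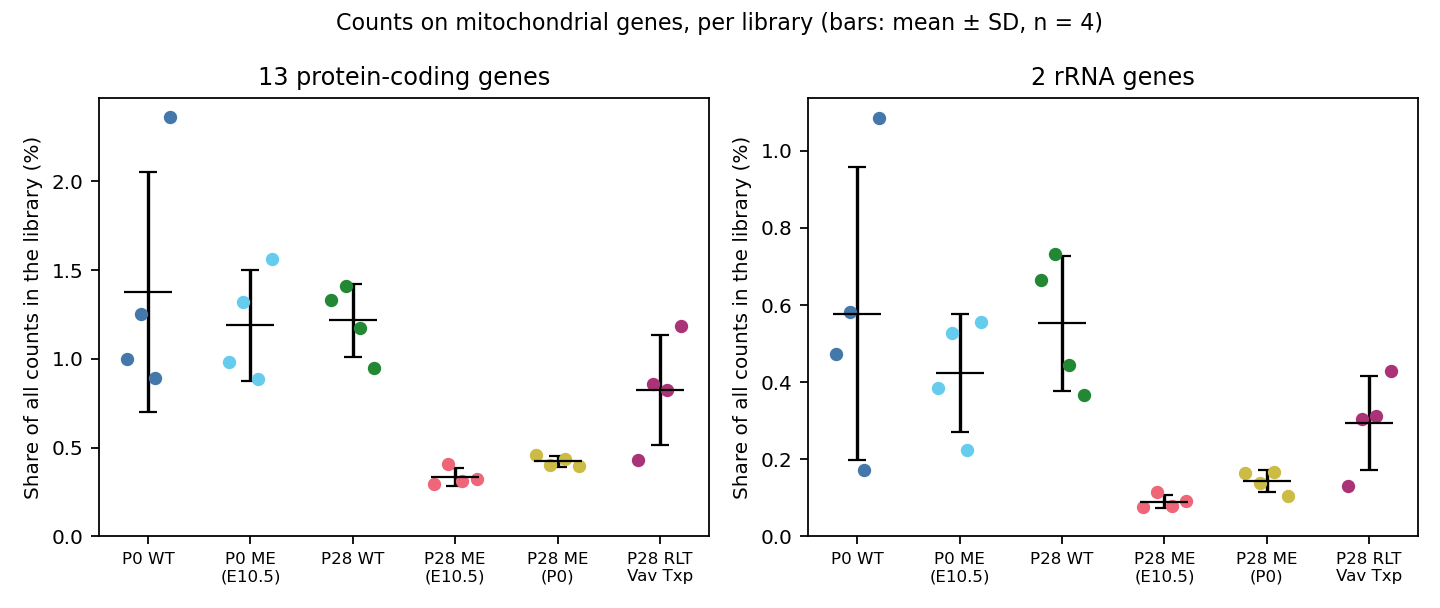
Share of all counts in a library (%) on the 13 protein-coding genes (left) and the 2 ribosomal RNA genes (right); each point is 1 library and the bars give mean ± SD (n = 4). In both panels the E10.5-induced and P0-induced ME libraries at P28 lie below all 4 P28 WT libraries.

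The protein-coding genes made up most of the share, with 1.22% ± 0.204 in P28 WT against 0.333% ± 0.0497 after E10.5 induction, 0.423% ± 0.0299 after P0 induction and 0.824% ± 0.310 in RLT Vav Txp (SD, n = 4). The ribosomal RNAs held 0.552% ± 0.174, 0.0898% ± 0.0174, 0.144% ± 0.0293 and 0.294% ± 0.122 in the same order. Relative to the messenger RNAs, the ribosomal RNAs were lower after E10.5 induction than in WT at P28. There were 0.446 ± 0.0734 ribosomal RNA counts per protein-coding count in P28 WT, between 0.378 and 0.519, and 0.268 ± 0.0165 in E10.5-induced ME, between 0.247 and 0.282 (SD, n = 4). Those groups did not overlap, while the P0-induced libraries (0.264 to 0.380) reached into the range of WT. In RLT Vav Txp the ratio was 0.306 to 0.379. At P0 it was 0.192 to 0.474 in WT and 0.251 to 0.399 in ME, so low ratios also occurred there. This ratio was not tested.

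Per length of gene, the order of the transcripts was much the same in all groups. In P28 WT the highest levels were 3344 RPKM (counts per kilobase after scaling to library size) for mt-Rnr2, the large ribosomal RNA, 2955 RPKM for mt-Cytb, the complex III subunit cytochrome b, 2611 RPKM for mt-Co1, a catalytic subunit of complex IV, and 1746 RPKM for mt-Nd1 of complex I. These 4 led in every group. Among them the SDs overlapped in P28 WT for mt-Rnr2, mt-Cytb and mt-Co1, whose order is thus not resolved by these libraries. In E10.5-induced ME, mt-Cytb came first with 876 RPKM, followed by 690 RPKM for mt-Co1, 537 RPKM for mt-Rnr2 and 501 RPKM for mt-Nd1. The lowest messenger RNAs in P28 WT were mt-Nd3 with 94.1 RPKM, mt-Atp8 with 19.4 RPKM and mt-Nd4l with 13.8 RPKM, and these 3 were last in every group.

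The comparison of E10.5-induced ME with WT at P28 asks whether cells that carried the fusion since mid-gestation differ in bone marrow. Of the 15 protein-coding and ribosomal RNA genes, 13 were called lower in ME, against 4.44% of all tested genes called lower. Their median log2 fold change was -1.85, against -0.10 over all genes. In all 15 the 4 ME libraries lay below the 4 WT libraries, against 28.2% of all genes with groups that did not overlap in either direction.

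The largest fall was in mt-Rnr2 (M:1094-2675), the RNA of the large mitochondrial ribosomal subunit. It had 5864, 6771, 4039 and 3345 CPM in the WT libraries and 722, 1167, 775 and 847 CPM in the ME libraries. The lowest WT library was thus far above the highest ME library, and the level was 5.70-fold lower in ME (log2 -2.51, SE 0.46, edgeR adjusted p = 0.00295). mt-Rnr1 (M:70-1024), the RNA of the small subunit, had 300.2, 287, 165 and 127 CPM in WT and 79.9, 42.5, 34.6 and 43.9 CPM in ME. It was lower too (log2 -2.13, SE 0.53, edgeR adjusted p = 0.0132), with less distance between the groups. This call was lost without P28 WT replicate 2 and without E10.5-induced ME replicate 3, where the edgeR adjusted p rose to at most 0.0534.

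All 3 subunits of complex IV, which passes electrons to oxygen, were called lower. mt-Co1 (M:5328-6872) had 3929.5, 4296, 3852 and 3187 CPM in WT and 959.5, 1316, 1111 and 1022 CPM in ME. Its libraries were tight within each group and far apart between groups, and it had the smallest p of the 15 (log2 -1.79, SE 0.26, edgeR adjusted p = 0.000363). The log2 changes of mt-Co2 and mt-Co3 were -2.10 (SE 0.40, edgeR adjusted p = 0.00312) and -2.08 (SE 0.36, edgeR adjusted p = 0.00206).

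mt-Cytb (M:14145-15288), the only subunit of complex III coded in mitochondria, had 3435, 3809, 3113 and 2431 CPM in WT and 987, 1300.2, 931 and 926 CPM in ME. Its fall was the smallest of the 15 (log2 -1.63, SE 0.30, edgeR adjusted p = 0.00226). Of the ATP synthase subunits, mt-Atp6 was called lower (log2 -1.66, edgeR adjusted p = 0.00609). mt-Atp8 had 1.67 to 5.20 CPM in WT and 0.768 to 1.40 CPM in ME, without overlap, but was not called (log2 -1.78, SE 0.65, edgeR adjusted p = 0.0699).

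In complex I, which takes electrons from NADH, 6 of 7 subunits were called lower. mt-Nd3 (M:9459-9806) changed most, from 28.9, 48.4, 22.0 and 24.9 CPM in WT to 5.19, 10.1, 4.38 and 4.60 CPM in ME (log2 -2.35, SE 0.45, edgeR adjusted p = 0.00295). Its level is uncertain because a nuclear copy is identical over 342 of its 348 bases. mt-Nd1, mt-Nd2, mt-Nd4 and mt-Nd5 had log2 fold changes of -1.67, -1.85, -1.94 and -1.67. Their changes were alike in size, and their edgeR adjusted p-values were 0.00760, 0.0129, 0.00245 and 0.00210. The call of mt-Nd2 was lost without P28 WT replicate 2 (edgeR adjusted p = 0.0508). mt-Nd4l was not called (log2 -2.08, SE 0.72, edgeR adjusted p = 0.0574), with 1.51 to 8.97 CPM in WT and 0.572 to 1.27 CPM in ME.

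mt-Nd6 (M:13552-14070) is the 1 of the 13 messenger RNAs on the minus strand. It had 207, 196, 179.7 and 135 CPM in WT and 45.4, 54.2, 53.3 and 52.3 CPM in ME. The groups were well apart (log2 -1.81, SE 0.50, edgeR adjusted p = 0.0217). The call was nevertheless lost in 6 of the 8 fits that left out 1 library, with an edgeR adjusted p of at most 0.0703. These 6 fits left out P28 WT replicate 1 or 2 or any of the ME libraries. The last 14 bases of mt-Nd5 and mt-Nd6 overlap on opposite strands (M:13552-13565). The strand setting of the counting is not given in the sources used here, so reads from opposite strands cannot be told apart.

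**Figure D2:**
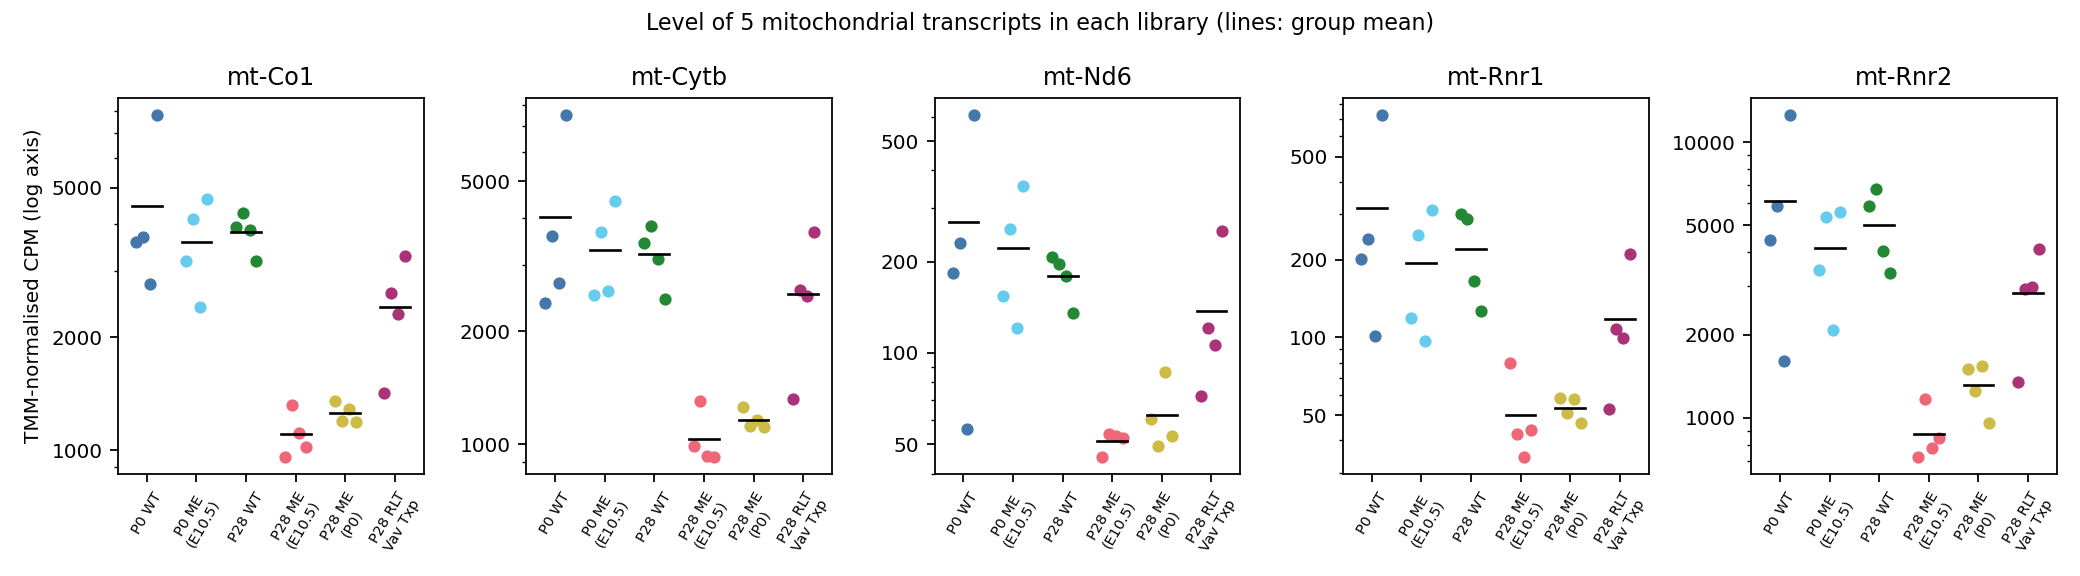
TMM-normalised CPM (log axis) of mt-Co1, mt-Cytb, mt-Nd6, mt-Rnr1 and mt-Rnr2 in each of the 24 libraries; points are libraries and lines are group means (n = 4). In each panel the 4 E10.5-induced and 4 P0-induced ME libraries at P28 lie below the 4 P28 WT libraries, and P0 WT replicate 4 is the highest point.

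In P0-induced ME at P28, whose transgene was switched on only after birth, the 15 genes again lay below WT in every library. Without overlap were 15 of 15, against 24.8% of all genes. The median log2 fold change was -1.54, against -0.09 over all genes, and 8 of 15 were called lower, against 1.08% of all genes. The same WT libraries served both comparisons, so the one is no independent repeat of the other.

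mt-Co1 had 1350.3, 1195, 1285 and 1189 CPM in the P0-induced libraries, all far below the 3187 CPM of the lowest WT library. It had the smallest p here as well (log2 -1.60, SE 0.26, edgeR adjusted p = 0.00519). mt-Rnr2 had 1506, 1248, 1538 and 959 CPM, also below WT (log2 -1.93, SE 0.45, edgeR adjusted p = 0.0418). Both mt-Co2 and mt-Co3 stood at -1.75 in log2 terms (SE 0.39 and 0.36, edgeR adjusted p = 0.0375 and 0.0303). mt-Cytb, with 1259, 1118, 1158 and 1115 CPM, was called lower (log2 -1.46, SE 0.30, edgeR adjusted p = 0.0288).

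The other 3 called genes were mt-Nd4, mt-Nd5 and mt-Atp6, with log2 fold changes of -1.54, -1.35 and -1.47. mt-Rnr1 was not called although its log2 fold change of -2.04 was the largest of the 15 (edgeR adjusted p = 0.0517), and its libraries had 58.6, 50.9, 57.7 and 46.8 CPM. mt-Nd6, with 60.4, 49.3, 86.7 and 53.2 CPM, was likewise not called (log2 -1.52, edgeR adjusted p = 0.0934). Only mt-Co1 was called in all 8 fits that left out 1 library. Without any of P28 WT replicates 1 to 3 or any of the 4 P0-induced libraries it was the 1 member called, while without P28 WT replicate 4 the count was 11.

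The ME groups induced at E10.5 and at P0 were compared directly, which asks whether the age at induction matters at P28. Earlier induction also means a longer time with ME, and these cannot be told apart. No member was called, against 0.0477% of all genes, and none had an unadjusted p under 0.05 in edgeR. DESeq2 and limma called 0 as well. The smallest p was that of mt-Nd3, with 5.19, 10.1, 4.38 and 4.60 CPM after E10.5 induction and 12.6, 10.9, 13.2 and 7.97 CPM after P0 induction. The groups overlapped by 1 library each (log2 0.88, SE 0.43, edgeR adjusted p = 1). The median over the 15 genes was 0.28, against -0.02 over all genes. With only the 8 libraries of these groups fitted, 3 members were called higher after P0 induction, mt-Nd3 among them (log2 0.94, edgeR adjusted p = 0.0467).

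In the RLT Vav Txp group the fitted levels of 14 of the 15 genes lay between those of E10.5-induced ME and WT. The exception was mt-Atp8, with 3.91 ± 3.11 CPM in RLT Vav Txp and 3.73 ± 1.5 CPM in WT (SD, n = 4). Against E10.5-induced ME, 13 of the 15 genes were called higher, against 8.5% of all genes called higher. The median log2 fold change was 1.43, against 0.12 over all genes. Only 9 of 15 had groups without overlap, against 25.7% of all genes, and RLT Vav Txp replicate 1 was low for most members.

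mt-Nd3 had 12.8, 20.7, 21.8 and 38.9 CPM in RLT Vav Txp, all above the 10.1 CPM of the highest E10.5-induced library. It showed the largest rise among the 15 (log2 1.96, SE 0.44, edgeR adjusted p = 0.00396). mt-Rnr2 had 1353, 2932, 2983 and 4116 CPM, with replicate 1 close to the E10.5-induced range and the others well above it (log2 1.70, SE 0.44, edgeR adjusted p = 0.0125). mt-Co1 had 1419, 2626, 2302 and 3292 CPM (log2 1.13, SE 0.26, edgeR adjusted p = 0.00429). mt-Cytb had 1322, 2569, 2479 and 3666 CPM (log2 1.28, SE 0.29, edgeR adjusted p = 0.00465), and here too replicate 1 stood at the edge of the E10.5-induced range.

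The call of mt-Atp8 (log2 1.85, SE 0.65, edgeR adjusted p = 0.0477) rested on libraries of 0.584, 2.37, 4.97 and 7.71 CPM. mt-Nd6 had 72.3, 120.4, 106 and 252 CPM (log2 1.43, SE 0.49, edgeR adjusted p = 0.0489). The calls of mt-Atp8, mt-Nd6 and mt-Nd2 were close to the threshold, and each was lost in 7 of the 8 fits that left out 1 library, all but the one without RLT Vav Txp replicate 1. mt-Nd1 was lost in 3 of the 8, those without E10.5-induced ME replicate 1 or 4 or RLT Vav Txp replicate 4. The other 9 were called in each of the 8. mt-Rnr1, with 52.8, 108, 99.2 and 211 CPM, and mt-Nd4l were not called (edgeR adjusted p = 0.107 and 0.101).

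Against P28 WT, no member was called in RLT Vav Txp, against 4.12% of all genes, and 2 of the 24 had an unadjusted p under 0.05, as did 15.3% of all genes. DESeq2 also called 0 and limma called 1. The gene with the smallest p among the 15 was mt-Co1 (log2 -0.66, SE 0.26, edgeR adjusted p = 0.175). The median of the 15 was -0.40, against 0.01 over all genes, and 0 of 15 had groups without overlap, against 11.5% of all genes.

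At P0, in liver cells, the 4 ME libraries, induced at E10.5, were set against the 4 WT libraries. No member was called, against 0.642% of all genes, and none had an unadjusted p under 0.05 in edgeR. DESeq2 and limma called 0 as well, and 0 of 15 had groups without overlap, against 3.74% of all genes. The median of the 15 was -0.31, against -0.01 over all genes.

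mt-Co1 had 3578, 3706, 2776 and 7816 CPM in P0 WT and 3189, 4125, 2407 and 4663 CPM in P0 ME (log2 -0.31, SE 0.25, edgeR adjusted p = 0.619). mt-Rnr2 had 4423, 5851, 1606 and 12529 CPM in WT and 3429.8, 5376, 2086 and 5589 CPM in ME. For both genes the highest WT library, replicate 4, stood far above the rest, and the other 3 lay within or near the range of ME. mt-Cytb had 2369.7, 3585, 2679 and 7495 CPM in WT and 2501, 3672, 2554 and 4440.2 CPM in ME, the same pattern.

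mt-Nd6 had 183, 230.0, 56.0 and 608 CPM in WT and 154, 257, 121 and 355 CPM in ME. mt-Rnr1 had 201, 240.5, 101 and 722 CPM in WT and 119, 249, 96.6 and 310.4 CPM in ME. In both, WT replicate 3 was the lowest of its group and replicate 4 the highest. Without P0 WT replicate 4 the log2 differences of mt-Co1, mt-Cytb, mt-Nd6, mt-Rnr1 and mt-Rnr2 turned from negative to positive (0.03 to 0.47), so their direction at P0 rests on that library. The smallest p among the 15 was that of mt-Atp8 (log2 1.14, SE 0.63, edgeR adjusted p = 0.430), with 14.6 CPM in P0 ME replicate 4 and 2.44 to 4.47 CPM in the other ME libraries.

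**Figure D3:**
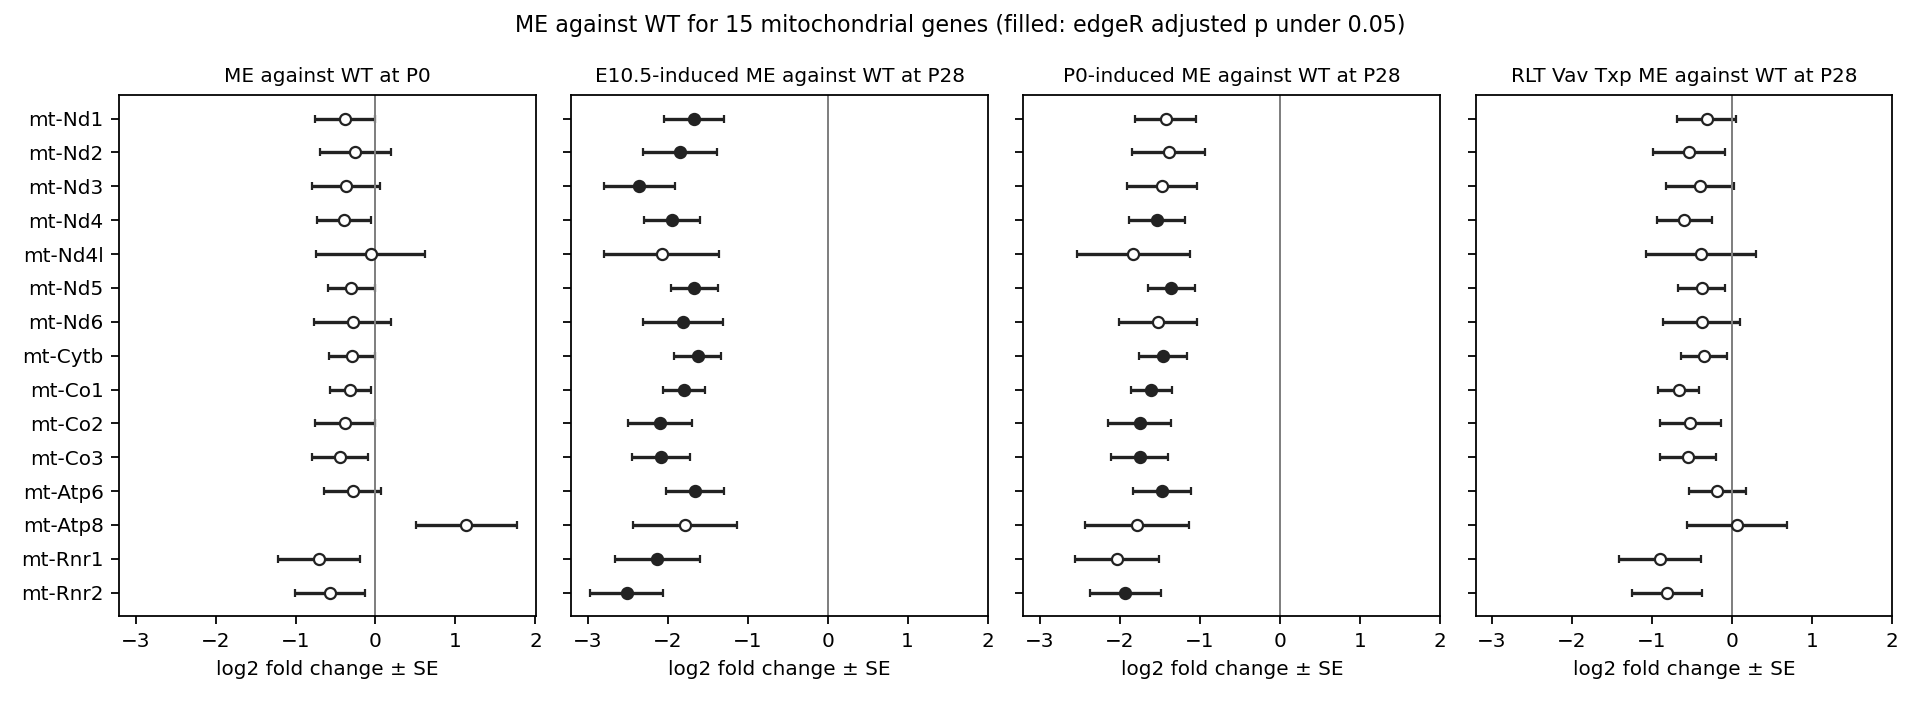
Log2 fold change ± SE from the edgeR fit for the 13 protein-coding and 2 ribosomal RNA genes in the 4 comparisons of ME with WT (n = 4 per group); filled points have an adjusted p under 0.05. At P28, filled points are seen for 13 genes after E10.5 induction and 8 after P0 induction, and there are none at P0 or in RLT Vav Txp.

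Whether the effect of E10.5 induction differed between the ages was tested as an interaction. The median of the 15 was -1.55, against -0.04 over all genes, and 14 of the 15 had an unadjusted p under 0.05, as did 16.5% of all genes. None was called with edgeR, against 0.72% of all genes, so the difference between the ages did not pass the adjusted threshold. The nearest was mt-Co1 (log2 -1.48, SE 0.36, edgeR adjusted p = 0.0507). DESeq2 called 9 members and limma 7, all lower. Without P0 WT replicate 4 edgeR called 13, and without P0 ME replicate 3 it called 1.

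Between P0 liver and P28 bone marrow, the members of WT mice did not pass the test. No member was called, against 7.68% of all genes, while 3 of the 24 and 21.7% of all genes had an unadjusted p under 0.05, and DESeq2 and limma called 0. The smallest p among the 15 was that of mt-Nd1, the complex I subunit, with 1353, 2513, 1323 and 5942 CPM at P0 and 1646, 2074, 1366 and 1239 CPM at P28 (log2 -0.82, SE 0.37, edgeR adjusted p = 0.199). Without P0 WT replicate 4, mt-Co1, mt-Cytb, mt-Nd6, mt-Rnr1 and mt-Rnr2 turned positive here too (0.13 to 0.32).

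In E10.5-induced ME, all 15 were called lower at P28 than at P0, against 8.45% of all genes called lower. None of the 15 had overlapping groups, against 25.4% of all genes without overlap, and the median was -1.99, against -0.18 over all genes. mt-Nd4l fell most of the 15 (log2 -2.64, SE 0.73, edgeR adjusted p = 0.0131), from 2.40, 9.68, 2.7 and 7.95 CPM at P0 to 1.27, 0.989, 0.800 and 0.572 CPM at P28. Next were mt-Atp8 (log2 -2.52, SE 0.66, edgeR adjusted p = 0.00941) and mt-Nd3 (log2 -2.48, SE 0.45, edgeR adjusted p = 0.000529). The highest members were lower as well, among them mt-Co1 (log2 -1.71, SE 0.26, edgeR adjusted p = 9.65e-05) and mt-Rnr2 (log2 -2.23, SE 0.45, edgeR adjusted p = 0.00190). Of these calls, 12 held in each of the 8 fits that left out 1 library. mt-Atp8 was lost without P0 ME replicate 4 and mt-Nd4l without P0 ME replicate 2. mt-Rnr1 was lost in 3 fits, those without P0 ME replicate 4 or E10.5-induced ME replicate 2 or 3 at P28. Markers of other cell types were lower in the same comparison, namely 8 of 8 hepatocyte, 7 of 8 erythroid, 7 of 8 neutrophil, 7 of 8 macrophage, 4 of 6 mast cell and basophil and 4 of 5 tested lymphoid markers. Their median log2 fold changes ran from -3.64 to -9.68. At P28 the hepatocyte markers Alb and Serpina1a were at 0 in E10.5-induced ME, and the erythroid sum was 387.6 to 764.1 CPM. Of the LSK markers, 3 of 9 were higher. In WT between the same ages, where no member was called, these markers of other cell types were lower too. There it was 6 of 8 hepatocyte, 7 of 8 erythroid, 6 of 8 neutrophil and 6 of 8 macrophage markers. So were 3 of 6 mast cell and basophil and 5 of 5 tested lymphoid markers, with medians from -3.90 to -6.34. Called in either direction in WT were 7.68% of all genes. In P28 WT and in E10.5-induced ME at P28, 2 of the 8 hepatocyte markers had no count in any library. Markers this low at P28 can pass the filter on low counts through their P0 libraries, which favours a call in this direction. No conclusion is drawn from the hepatocyte counts. The part of the marker shifts in the fall of the members in E10.5-induced ME was not tested, and age and tissue cannot be told apart here either.

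The transfer RNAs were too low to describe in most cases. A library held 85 to 2822 counts on all 22 together, and 4 to 21 of the 22 genes had any count in a library. RNA this short is poorly kept by column kits, and mature transfer RNAs cannot be told apart here from longer precursors. mt-Tp made up 36.4% to 82.4% of them, with 8569 counts over all 24 libraries. It was followed by mt-Tq with 1974 counts, mt-Ts1 with 1146 and mt-Tl1 with 672. The other tested ones, mt-Te, mt-Ta, mt-Tc, mt-Tn and mt-Tt, had 131 to 193 counts each over the 24 libraries. The 13 below the filter ranged from mt-Ti with 54 counts over all libraries to mt-Tg and mt-Ts2 with 2 each.

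In E10.5-induced ME against WT at P28, 0 of the 9 tested transfer RNAs were called with edgeR, against 12.3% of all genes. All 9 had a log2 fold change below 0, and 3 had an unadjusted p under 0.05, as did 26.7% of all genes. Some of these directions rest on hardly any counts, since mt-Tt had at most 2 counts in a WT library and 0 in ME. mt-Tp had 4.25, 6.59, 8.28 and 4.01 CPM in WT and 2.88, 1.56, 2.60 and 1.72 CPM in ME. Its groups did not overlap, and it was not called (log2 -1.40, edgeR adjusted p = 0.0511). Between the ages in E10.5-induced ME, mt-Tp was called, from 5.15, 17.6, 4.97 and 10.7 CPM at P0 to the P28 values above (log2 -2.13, SE 0.48, edgeR adjusted p = 0.00321). mt-Tl1 and mt-Tt were called in the same comparison on few counts, with mt-Tl1 at 0 to 0.125 CPM and mt-Tt at 0 counts in the 4 P28 libraries. No fold is given for mt-Tl1 and mt-Tt, and each was lost in 6 of the 8 fits that left out 1 library. Both were kept by the filter on low counts largely through their P0 libraries, which favoured a call in this direction. No conclusion is drawn from these calls.

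Some nuclear copies on chromosome 1 held about as many counts as their mitochondrial genes, and others did not. Gm28437, which matches all but the last base of mt-Co3, held 0.904 to 1.09 counts per mt-Co3 count over the 24 libraries. For Gm28661 and mt-Co2 (1:24614885-24615565, 681 of 681 aligned bases identical) the ratio was 0.990 to 1.24, and for Gm10925 and mt-Atp6 (1:24613974-24614651, 678 of 678) it was 0.942 to 1.30. These ratios are near 1 in every library. Gm10222 is identical to mt-Nd4l over 294 aligned bases, yet it held 0.606 to 4.24 counts per mt-Nd4l count. The counts of mt-Nd4l were low, 25 to 735 in a library. The copy of mt-Nd3, Gm28438, is identical over 342 aligned bases but held 0.15 to 0.378 counts per mt-Nd3 count. Gm29216, whose 483 aligned bases match mt-Co1 except for the 1 shown, held 0.0560 to 0.124 counts per mt-Co1 count. Gm28439, identical to mt-Nd4 over 876 aligned bases, held 0.0324 to 0.0790 counts per mt-Nd4 count.

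Where all aligned bases are identical, the reads of copy and gene cannot be told apart, and the levels of mt-Co2, mt-Co3, mt-Atp6, mt-Nd4l and mt-Nd3, and of the first 876 bases of mt-Nd4, are uncertain for that reason. The sources used here do not give how reads with several matches were counted. With each copy's counts added to its gene, mt-Co3 stood at 1369 instead of 673 RPKM in P28 WT, mt-Atp6 at 921 instead of 419 RPKM and mt-Co2 at 627 instead of 303 RPKM. Beside the 7 copies on chromosome 1, Gm20594 on chromosome 6 was tested, which matches mt-Rnr2 at 385 of 435 aligned bases. All 8 were called lower in E10.5-induced ME than in WT at P28, Gm10222 among them, whose gene mt-Nd4l was not. In P0-induced ME against WT 4 of the 8 were called lower, against 6 of the 8 genes they match, and 7 were higher in RLT Vav Txp than in E10.5-induced ME. Gm28437, for example, was lower in E10.5-induced ME than in WT (log2 -2.17, SE 0.38, edgeR adjusted p = 0.00210). With the copies added, 14 members instead of 13 were called lower in E10.5-induced ME than in WT at P28.

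**Figure D4:**
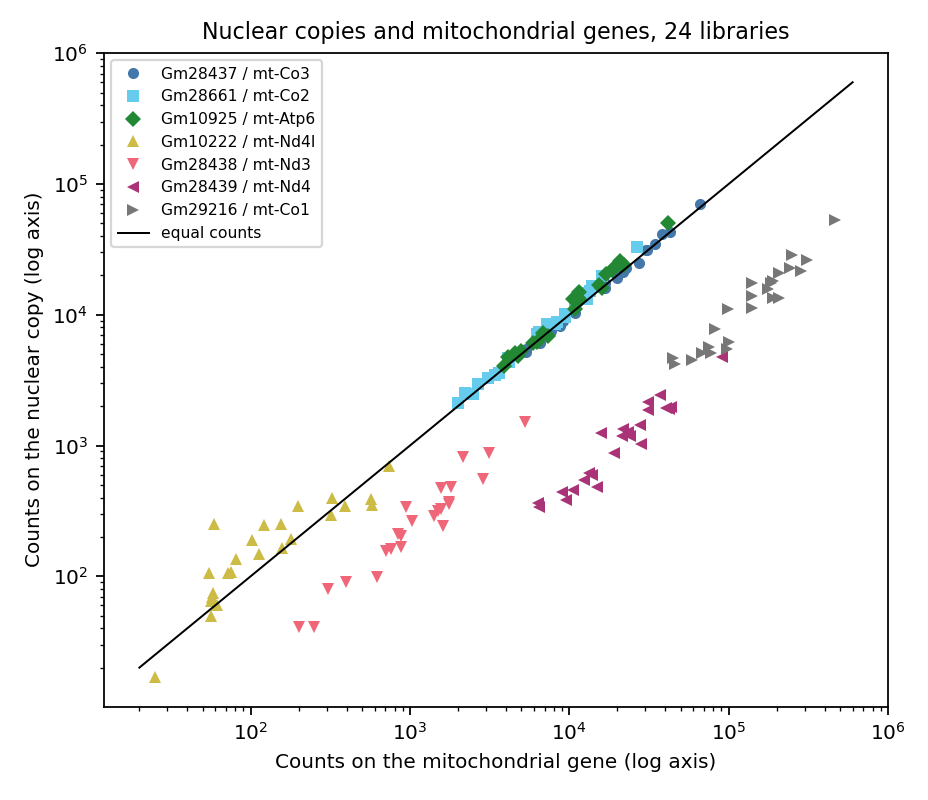
Counts on 7 nuclear copies (vertical, log axis) against counts on the mitochondrial gene each matches (horizontal, log axis); each point is 1 library (24 per pair) and the line marks equal counts. Gm28437, Gm28661 and Gm10925 lie along the line, while Gm28438, Gm28439 and Gm29216 lie below it. Gm10222 scatters to both sides of it.

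Nuclear genes that serve the mitochondrial genome were called in both directions. The counts here stand beside 12.3% of all genes called in either direction in E10.5-induced ME against WT at P28. Of 10 genes for mitochondrial transcription, 1 was called higher and 1 lower. Their median log2 fold change was -0.18, against -0.10 over all genes. Polrmt, the mitochondrial RNA polymerase, had 81.7 ± 8.03 CPM in ME and 46.9 ± 6.89 CPM in WT (SD, n = 4) and was called higher (log2 0.80, SE 0.24, edgeR adjusted p = 0.0283). Tefm, the elongation factor, was called lower (log2 -0.65, SE 0.22, edgeR adjusted p = 0.0494). The call of Polrmt held in 2 of the 8 fits that left out 1 library and that of Tefm in 1. Tfam, which packs mitochondrial DNA and starts transcription, had 123 ± 10.3 CPM in WT and 114 ± 6.70 CPM in ME (SD, n = 4). Tfb2m, a further initiation factor, had 27.5 CPM in WT and 31.5 CPM in ME. Neither was called.

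Of 21 genes for processing, stability and decay of mitochondrial RNA, 2 were called higher and 0 lower. Lrpprc, which stabilises mitochondrial messenger RNAs, had 79.6 ± 10.4 CPM in WT and 150.0 ± 20.8 CPM in ME (SD, n = 4; log2 0.91, SE 0.25, edgeR adjusted p = 0.0179). Its call held in 5 of the 8 fits. Of 12 genes that maintain mitochondrial DNA, 1 was called lower, Ssbp1, the single-strand binding protein (log2 -0.62, edgeR adjusted p = 0.0451). Its call held in 2 of the 8 fits.

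Among 9 regulators of mitochondrial biogenesis, 3 were called higher and 0 lower. Nrf1, a transcription factor for nuclear genes of respiration, had 58.0, 51.2, 76.7 and 76.8 CPM in WT and 119, 125, 110 and 106 CPM in ME. Gabpa, a factor for many of the same genes, had 59.1, 50.4, 73.9 and 67.0 CPM in WT and 122, 123, 121 and 107 CPM in ME. For both, every ME library was above every WT library (log2 0.81, SE 0.17, edgeR adjusted p = 0.00448 for Nrf1; log2 0.92, SE 0.20, edgeR adjusted p = 0.00499 for Gabpa), and both were called in all alternatives and all 8 fits. Both were higher in the group where the members were lower. In RLT Vav Txp against E10.5-induced ME, Nrf1 (log2 -0.72, edgeR adjusted p = 0.00519), Gabpa (log2 -0.79, edgeR adjusted p = 0.00716) and Polrmt (log2 -0.90, edgeR adjusted p = 0.0120) were lower. Genes of these lists were also called higher there, Fastkd2 (log2 0.73, edgeR adjusted p = 0.0160), Ssbp1 (log2 0.69, edgeR adjusted p = 0.0197), Tefm (log2 0.70, edgeR adjusted p = 0.0267) and Rexo2 (log2 0.63, edgeR adjusted p just under the threshold). Of the 4 lists, 4 genes were higher and 8 lower in that comparison, in which 17.9% of all genes were called. With 1 library left out, Fastkd2 kept its call in 4 of 8 fits, Ssbp1 in 3, Tefm in 2 and Rexo2 in 0. In the main edgeR fit no gene of these 4 lists was called between P0-induced ME and WT (1.08% of all genes called lower). Nor was any between the induction ages (0.0477% called), between ME and WT at P0 (0.642%) or in the interaction (0.72%). Without overlap, Nrf1 and Gabpa were nevertheless higher and Tefm and Ssbp1 lower in P0-induced ME than in WT, against 24.8% of all genes. The groups overlapped for Polrmt. With only the groups compared, Lrpprc and Tfam were called against WT and Polrmt and Lrpprc between the induction ages. Without P0 WT replicate 4, Polrmt and Lrpprc were called in the interaction. In E10.5-induced ME, where members were lower at P28 than at P0, all 4 lists had calls. Higher at P28 were 1 of 10 transcription, 4 of 21 processing, 5 of 12 DNA maintenance and 3 of 9 biogenesis genes. Lower were 2, 1, 0 and 0 (8.45% of all genes). Polrmt was called higher in all 8 fits, while Tefm, Mterf1a and Fastkd2 were called lower in 4, 4 and 3. In WT, 2 DNA maintenance genes were higher at P28 (7.68% called). Rexo2 was higher in RLT Vav Txp than in WT (4.12%), in 0 of 8 fits.

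RNAs that stay in the nucleus also differed between the groups. The summed level of Malat1, Neat1 and Kcnq1ot1, long non-coding RNAs of the nucleus, was 432.5 to 821.8 CPM in P28 WT and 104.7 to 550.6 CPM in RLT Vav Txp. It was 84.0 to 153.6 CPM after E10.5 induction and 128.6 to 184.6 CPM after P0 induction. All 3 were called lower in E10.5-induced ME against WT at P28, against 4.44% of all genes, with a median log2 fold change of -2.47. Of the 3, 2 were lower in P0-induced ME against WT, against 1.08% of all genes. All 3 were higher in RLT Vav Txp against E10.5-induced ME (8.5% of all genes higher). All 3 were lower at P28 than at P0 in ME (8.45% of all genes lower). None of the 3 was called in ME against WT at P0 or in P28 against P0 in WT, where no member was called either. Of all genes, 0.642% and 7.68% were called there in either direction. In other comparisons without a called member some of these RNAs were called. It was 1 of 3 lower in RLT Vav Txp against WT and 2 of 3 lower in the interaction (median log2 -2.34). Called in either direction there were 4.12% and 0.72% of all genes. Among single libraries, P0 WT replicate 4 had the highest sum, 1653 CPM, and RLT Vav Txp replicate 1 the lowest of its group. What this shift in RNA make-up contributes to the mitochondrial values was not tested.

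**Figure D5:**
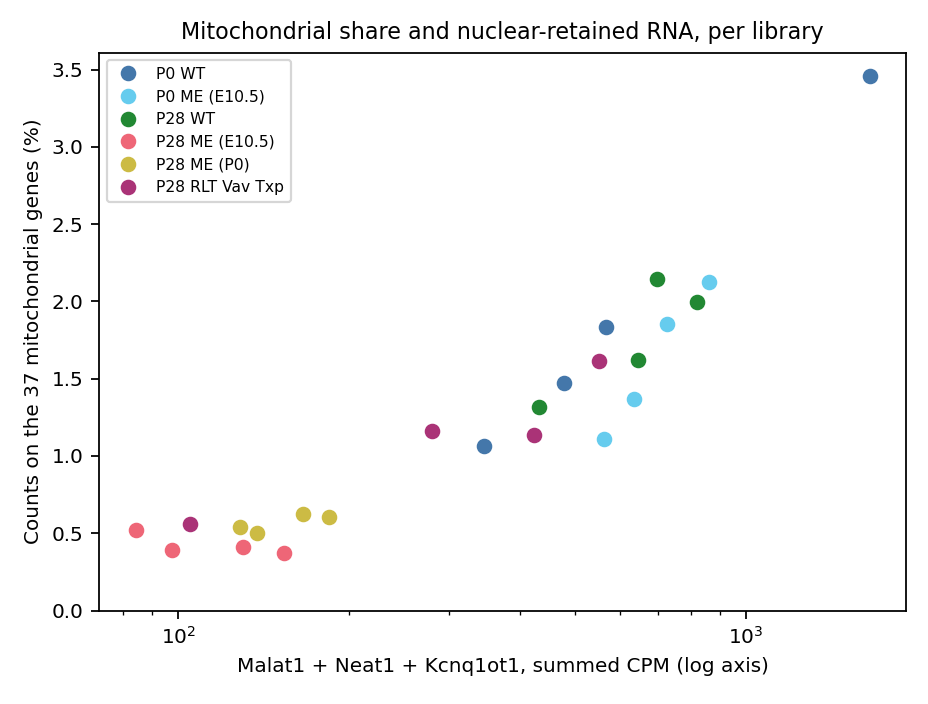
Share of counts on the 37 mitochondrial genes (%, vertical) against the summed CPM of Malat1, Neat1 and Kcnq1ot1 (horizontal, log axis) for the 24 libraries, coloured by group. The E10.5-induced and P0-induced ME libraries at P28 and RLT Vav Txp replicate 1 sit at the lower left, and P0 WT replicate 4 at the upper right with 3.46% and 1653 CPM.

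Markers of other cell types also differed between groups. The summed level of 8 macrophage markers was 620.1 to 2616 CPM in RLT Vav Txp, 69.7 to 104.8 CPM in P28 WT and 50.8 to 77.2 CPM in E10.5-induced ME. All 8 were called higher in RLT Vav Txp than in E10.5-induced ME, the comparison in which 13 members rose. So were 4 of 6 mast cell and basophil, 4 of 5 tested lymphoid and 1 of 8 hepatocyte markers. Of all genes, 8.5% were called higher there. Called were 0 of 8 erythroid and 0 of 8 neutrophil markers, with median log2 fold changes of 2.29 and 2.84. Of the 9 LSK markers, 4 were lower (Cd34, Flt3, Hlf and Mecom) and 1, Procr, higher there, and 3 were lower than in WT. In either direction, 17.9% of all genes were called against E10.5-induced ME and 4.12% against WT. The part of these shifts in the rise of the members was not tested. In E10.5-induced ME against WT at P28, 0 of the 8 macrophage, 8 erythroid, 8 neutrophil and 8 hepatocyte markers were called with edgeR. There, 1 of 6 mast cell and basophil markers and 1 of 5 tested lymphoid markers were lower, and 1 LSK marker was higher and 1 lower. Of all genes, 12.3% were called there in either direction. At P0 the 8 erythroid markers summed to 656.8 to 17830 CPM in WT and 268.6 to 14030 CPM in ME, and the 8 neutrophil markers to 754.8 to 17230 CPM and 710.9 to 36530 CPM. Their part in the spread of the members at P0 was not tested.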

How the data were processed

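The authors deposited 1 table of raw counts per Ensembl gene with a column for each of the 24 libraries. Per the labels' protocols, a Qiagen RNeasy Plus kit was used for RNA and Clontech SMARTer chemistry for libraries. The submitters' processing notes name STAR 2.7.9a, Subread, featureCounts 2.0.3 and GRCm38, and the strand setting and the handling of reads with several matches are not given in the sources used here. Of 55774 entries, 287 identical repeats of 168 IDs were dropped. Positions and sequences came from GENCODE M21 on GRCm38.

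Genes were kept by filterByExpr with a minimum count of 10, which left 23059. After TMM scaling, edgeR's quasi-likelihood F-test with robust dispersions was run on a single fit of the 24 libraries, with a mean for each group and 18 residual degrees of freedom. The procedure was tested on simulated data. CPM values are given as mean ± SD over 4 libraries, errors of fold changes are SEs of the model, and p-values were adjusted after Benjamini and Hochberg over all genes tested in each of 9 comparisons. A floor of 3 counts equals 0.0334 to 0.0960 CPM in these libraries. Nuclear copies were aligned to the mitochondrial genes with Biopython.

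All protein-coding and ribosomal RNA members could be named. mt-Co1, mt-Cytb, mt-Nd6, mt-Rnr1 and mt-Rnr2 were given by library, up to 3 called genes with the largest changes per direction were named, or else the gene with the smallest p, and up to 4 transfer RNAs by level. Of the nuclear lists up to 4 genes were named per comparison, and Polrmt, Tfam, Tfb2m and Lrpprc at the P28 comparison with WT. Other members, the copies, single cell type markers, and the nuclear genes called higher in RLT Vav Txp than in E10.5-induced ME were named after their values were seen. So were the nuclear genes named between the ages and in RLT Vav Txp against WT. The members, lists and tests were chosen with earlier results of these data known. Alternatives were RLE factors, plain library totals, scaling on nuclear genes, DESeq2, limma voom with quality weights, no filter, at least 10 counts in at least 12 libraries, only the groups compared, a replicate block, and each library left out. Adding the copies' counts to their genes was chosen after seeing the data. Programs were Python 3.11.15 with Biopython 1.88 and matplotlib 3.10.9, and R 4.3.3 with DESeq2 1.42.0, limma 3.58.1 and edgeR 4.0.16.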

Additional observations from a re-analysis of the deposited data

Results flagged for a closer look

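Of 114 checks, 19 quantities in each of the 6 groups, 10 had 1 library whose gap to the nearest other exceeded Dixon's 95% critical value for 4 samples, as a fraction of the group's range. Chance flags about 1 in 20 groups.

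P0 WT replicate 4 stood apart upwards in mt-Co2 (443 CPM, against 146 to 181 in the other 3, gap 0.881 of the range), mt-Co3 (1109 against 411 to 499 CPM, gap 0.875), mt-Atp6 (693 against 216 to 288 CPM, gap 0.849) and mt-Nd4 (1511 against 384 to 563 CPM, gap 0.841). P0 WT replicate 3 had the fewest ribosomal RNA counts per protein-coding count of its group, 0.192 against 0.459 to 0.474 (gap 0.948). P0 ME replicate 4 was highest in mt-Atp8, with 14.6 against 2.44 to 4.47 CPM (gap 0.833).

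At P28, E10.5-induced ME replicate 2 was highest in mt-Nd3 (10.1 against 4.38 to 5.19 CPM, gap 0.858) and in mt-Cytb (1300.2 against 926 to 987 CPM, gap 0.836), and both values stayed below all P28 WT libraries. The count of mt-Nd6 per count of mt-Nd5, which lie on opposite strands, was high in P0-induced ME replicate 3 (0.223 against 0.158 to 0.166, gap 0.874) and in RLT Vav Txp replicate 4 (0.250 against 0.170 to 0.18, gap 0.882).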

How the results depend on the processing

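Over 56 results on mitochondrial genes and 1080 alternative values, 976 kept their direction and side of the threshold, 60 lost a call, 31 gained one and 13 reversed. The 13 reversals were in differences that had no call. All but 3 arose without P0 WT replicate 4, which gave the upper end of the ranges here. With 1 library left out, ME against WT at P0 ran from -0.51 to 0.063 for mt-Co1, -0.52 to 0.15 for mt-Cytb, -0.65 to 0.47 for mt-Nd6, -1.07 to 0.065 for mt-Rnr1 and -0.91 to 0.026 for mt-Rnr2 (log2). P28 against P0 in WT ran from -0.39 to 0.17, -0.52 to 0.13, -0.91 to 0.19, -0.81 to 0.26 and -0.59 to 0.32 in the same order. In that comparison limma gave 0.036 for mt-Co1 and 0.086 for mt-Rnr2. In P0-induced against E10.5-induced ME mt-Rnr1 ran from -0.050, without E10.5-induced ME replicate 3, to 0.41.

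The number of members called in P0-induced ME against WT was 16 with DESeq2, 18 with limma, 3 without a filter, 17 with only the groups compared, and 1 to 11 with 1 library left out, all lower. In RLT Vav Txp against WT limma called 1, and in P0-induced against E10.5-induced ME a fit of only those groups called 3. The interaction had 1 call with plain totals, 9 with DESeq2, 7 with limma, 1 with the stricter filter, 2 in the 20 numbered libraries without a block and 0 to 13 with 1 library left out. With the replicate block it had 2 calls, and the block changed no other count of calls by over 1.5 times. The replicate numbers were not taken as pairs, by a rule that all correlations of a pair of groups exceed 0.1. The 40 correlations of same-numbered libraries ran from -0.129 to 0.324, and 0 pairs of groups had all above 0.1. Those of P0 WT with P0 ME were all positive, at 0.324, 0.029, 0.025 and 0.133. The mitochondrial share also ranked in the same order by replicate number in P0 WT and P0 ME. Pairing at P0 was not tested further. The RLT Vav Txp libraries carry no replicate number, so no block could be fitted with them. The cause of these changes was not tested.

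For E10.5-induced ME against WT at P28 the count of members called lower was 12 to 18 over the alternatives and 10 to 15 with 1 library left out. With plain totals in place of TMM the median of all genes in that comparison moved from -0.10 to -0.23. Counts were too low to test 13 of the 22 transfer RNAs.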
